A study of Homo sapiens with 6 samples.

Results

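Liver cells build fatty acids from acetyl-CoA, store them as triglyceride and burn them by beta-oxidation, and 45 genes of these 3 routes were examined in HepG2 cells treated with sorafenib. The genes were chosen by their known function, but with earlier results of these data known. They comprise 12 of fatty acid synthesis, 3 of fatty acid activation, 11 of triglyceride synthesis, storage, release and export, and 14 of beta-oxidation. The other 5 encode transcriptional regulators of lipid metabolism. HepG2 is a human liver cancer line, classed as hepatocellular carcinoma in the labels. Control cells received the solvent DMSO and treated cells sorafenib at a labelled dose of 3 mM, each for 24 h, with 3 Illumina BeadChip arrays per group and 6 in all. Sorafenib inhibits RAF kinases and several receptor tyrosine kinases. Micromolar doses are usual in culture, and the files do not allow the unit of the dose to be checked. Nothing in the labels shows whether replicates came from separate cultures, and each p-value therefore covers only the spread among arrays, which may be technical. In whole-culture RNA, fewer cells of a kind and less RNA per cell cannot be told apart.

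In fatty acid synthesis, citrate leaves the mitochondria and is split to acetyl-CoA, which acetyl-CoA carboxylase and fatty acid synthase turn into saturated fatty acids that elongases and desaturases then modify. Acyl-CoA synthetases activate fatty acids for either fate: sequential acylation of glycerol 3-phosphate to triglyceride, or entry into mitochondria through the carnitine shuttle and stepwise shortening. The transcription factors SREBP-1 and ChREBP are known to drive the synthesis genes in liver, and PPAR alpha the oxidation genes.

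A probe was taken as above background at a detection p under 0.05, and a probe had to be so on 3 or more of the 6 arrays. Of the 45 genes, 44 had a probe with a gene symbol, and 57 of their 75 probes and 39 genes passed this filter. Each of the 39 was above background on 6 arrays, so none passed through 1 group alone. ME1 (malic enzyme, a source of NADPH), THRSP (a lipogenic nuclear protein), PNPLA3 (a lipid droplet hydrolase), FABP1 (the liver fatty acid binding protein) and ACADL (long-chain acyl-CoA dehydrogenase) were not above background on any array, and ACSL3 was not analysed here. Levels are normalized log2 intensities of a gene's brightest probe, differences are sorafenib minus control on that log2 scale, and a gene was called at a limma adjusted p under 0.05 over all 11542 genes tested.

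Of 9 liver markers with a probe, 9 were above background on each array, among them ALB, AFP and APOA1, and their summed level (unlogged intensity) was 220882 to 242182 in control and 193521 to 221833 with sorafenib. The endothelial markers CDH5, VWF and KDR and the fibroblast markers COL1A1, COL1A2, COL3A1 and LUM were not above background on any array. Of 4 leukocyte markers 3 were detected on all 6 arrays, with a summed level of 7513 to 8349 in control and 12150 to 14306 with sorafenib. LYZ, the lysozyme gene, had the highest level of these and a difference of 0.82 ± 0.10 (SE, n = 3 per group, limma, adjusted p = 0.00271). CD68 (-0.01, adjusted p = 0.951) and CD14 (0.23, adjusted p = 0.0639) were not called by limma. The pan-leukocyte marker PTPRC was not above background on any array. PDGFRB, a receptor of stellate cells, was above background on 3 arrays, the 3 with sorafenib. The summed adipocyte markers were 915 to 964 in control and 829 to 964 with sorafenib, and PLIN1 of that list was not above background on any array. Mean intensity per array, 739 to 974 in control and 832 to 1050 with sorafenib, overlapped between the groups. The part of these markers in the results was not tested.

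Among the 39 genes tested, those of fatty acid synthesis, activation, storage and beta-oxidation were lower or not called with sorafenib, and none of these 4 groups was called higher. Of the 39 genes tested, 19 passed the threshold, against 25.3% of all genes: 18 were lower and 1, the regulator SREBF1, was higher. That is 46.2% lower, against 14.3% of all genes tested, and 2.56% higher, against 11.0% of all genes. ACSS2 was the 1 gene called with a change of at least 1 on the log2 scale, or 2.56%, against 2.41% of all genes. The median difference over the 39 was -0.29, against 0.00073 over all genes, and 33 of the 39 differences were negative. In 28 of the 39 the 3 sorafenib arrays did not overlap with the 3 control arrays, a pattern found in 44.9% of all genes. Leaving out control array 2 or 3 gave 8 or 10 lower genes of the 39, where 8.51% or 9.95% of all genes were lower. Leaving out sorafenib array 1 or 2 gave 10 or 9, where 9.44% or 8.91% of all genes were lower. Median scaling gave 11, where 7.72% of all genes were lower. When arrays were blocked by replicate number, 3 of the 39 genes were higher: SREBF1, CPT1A and LPIN2. In that fit 1664 of all 11542 genes were higher, against 1272 without the block.

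Set side by side, the 3 routes had median differences of -0.44 for synthesis, -0.34 for storage and -0.25 for oxidation. Negative differences were found in 10 of 10 synthesis genes, 8 of 9 storage genes and 10 of 13 oxidation genes, and the range ran from -1.19 to -0.16 in synthesis, from -0.76 to 0.23 in storage and from -0.72 to 0.39 in oxidation. On single arrays, the median deviation of the synthesis genes from their mean over all arrays was 0.12, 0.15 and 0.34 in control and -0.27, -0.21 and -0.13 with sorafenib. That of the storage genes was 0.11, 0.29 and 0.23 in control and -0.34, -0.13 and -0.03 with sorafenib, and that of the oxidation genes 0.07, 0.12 and 0.16 against -0.22, -0.14 and 0.01. In each route every sorafenib array thus lay below every control array, and the sorafenib array 3 lay closest to the controls. The differences between the routes themselves were not tested.

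**Figure D1:**
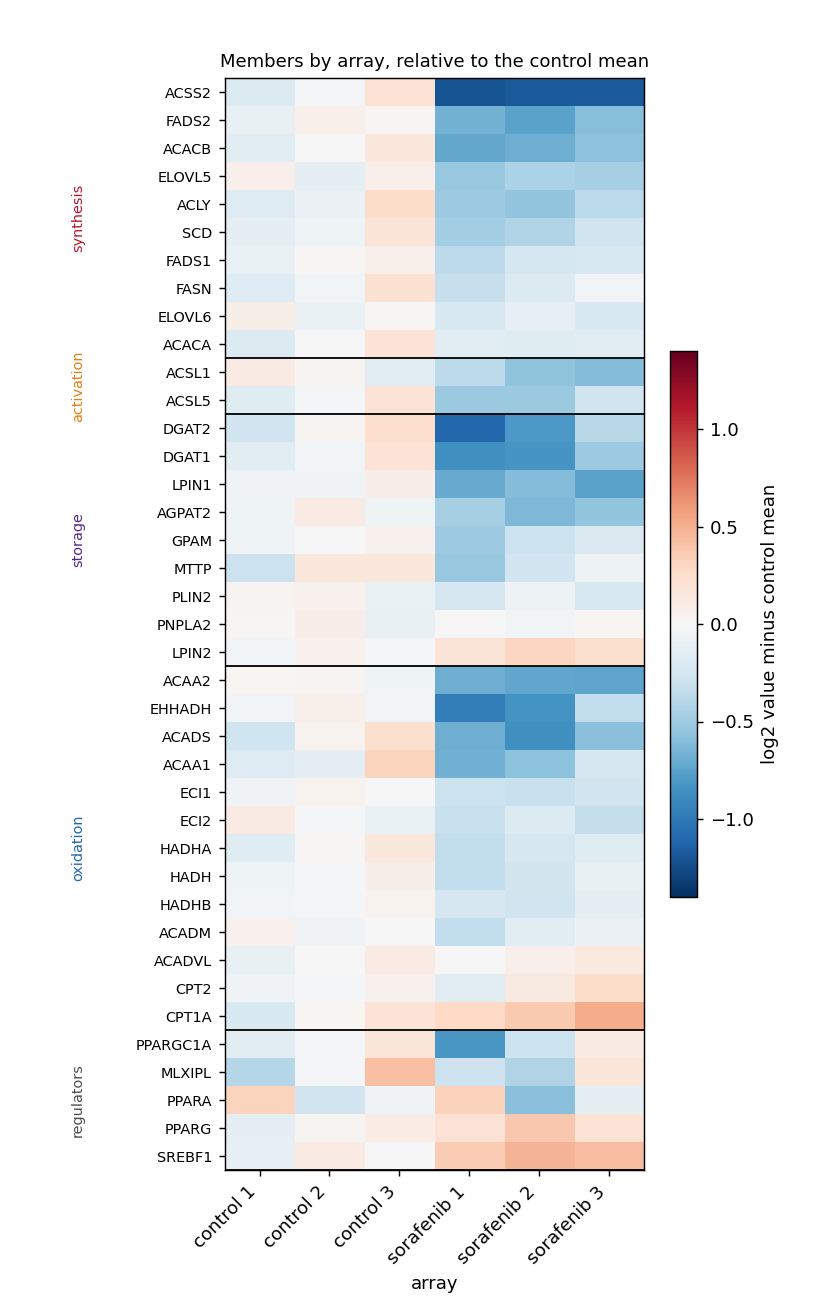
Level of the 39 tested genes on each of the 6 arrays, as log2 value minus the mean of the 3 control arrays (blue lower, red higher), grouped by role. The sorafenib columns are blue for most synthesis, activation and storage genes, with ACSS2 the darkest, and red for SREBF1, CPT1A, PPARG and LPIN2.

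Synthesis genes of acetyl-CoA supply and of desaturation were lower, whereas the fatty acid synthase gene FASN, the cytosolic carboxylase gene ACACA and the elongase gene ELOVL6 were not called. Of 10 tested, 7 were lower (70.0%, against 14.3% of all genes) and none higher (against 11.0%), and the median difference was -0.44. ACSS2, which makes acetyl-CoA from acetate, had levels of 13.56, 13.73 and 13.95 on the control arrays and 12.54, 12.57 and 12.57 on the sorafenib arrays. Its difference was -1.19 ± 0.11 (SE, n = 3 per group; adjusted p = 0.00117 by limma), the largest difference among the 39 genes, and the groups did not overlap. ACLY, which splits citrate to acetyl-CoA in the cytosol, was at 13.78, 13.88 and 14.22 in control and 13.45, 13.41 and 13.58 with sorafenib. Its difference was -0.48 ± 0.12 (adjusted p = 0.0326), again without overlap.

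Acetyl-CoA carboxylase makes malonyl-CoA, and its isoforms differ in place: ACACA encodes the cytosolic enzyme that feeds synthesis, and ACACB the mitochondrial isoform whose product restrains the carnitine shuttle. ACACB, although of this second role, is counted here among the synthesis genes. It fell from 8.02, 8.17 and 8.32 to 7.45, 7.48 and 7.59, a difference of -0.66 ± 0.10 (limma, adjusted p = 0.00528). ACACA was at 11.28, 11.47 and 11.66 in control and 11.31, 11.30 and 11.31 with sorafenib. The sorafenib values of ACACA on this probe, its brightest, lay within the control range, and its difference of -0.16 ± 0.11 was not called (adjusted p = 0.302). FASN, the synthase that assembles palmitate, was at 14.77, 14.91 and 15.16 in control and 14.62, 14.75 and 14.91 with sorafenib. Its groups overlapped, and its difference of -0.19 ± 0.13 was not called (adjusted p = 0.317). Whether the isoforms differed in their change was not tested.

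Desaturases and elongases, which add double bonds and carbon pairs, were mostly lower. SCD, the stearoyl-CoA desaturase that makes monounsaturated fatty acids, was at 14.73, 14.80 and 15.04 in control and 14.38, 14.43 and 14.57 with sorafenib (-0.39 ± 0.10; limma, adjusted p = 0.0354). FADS1 and FADS2 encode the desaturases of polyunsaturated fatty acids. FADS2 was at 6.51, 6.68 and 6.63 in control and 5.94, 5.85 and 6.01 with sorafenib (-0.67 ± 0.08, adjusted p = 0.00301), while FADS1 went from 12.08, 12.20 and 12.25 to 11.81, 11.93 and 11.95 (-0.28 ± 0.08, adjusted p = 0.0449). ELOVL5, an elongase of polyunsaturated chains, fell from 10.32, 10.12 and 10.32 to 9.73, 9.81 and 9.79 (-0.48 ± 0.08, adjusted p = 0.00936). In these 4 genes every sorafenib array was below every control array. ELOVL6, the elongase of saturated chains, differed by -0.18 ± 0.08 and was not called (adjusted p = 0.139).

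FADS1 lost its call in each fit that left out 1 of the 6 arrays, with adjusted p from 0.0533 to 0.125 (limma). ACLY and SCD lost theirs when control array 2 or 3 or sorafenib array 1 or 2 was left out, with adjusted p up to 0.0980 and 0.102, and in those 4 fits 4 synthesis genes were lower. Without a filter ACLY, SCD and FADS1 lost their calls (adjusted p = 0.0511, 0.0563 and 0.0756), as FADS1 did when each probe was tested on its own (0.0540). Median scaling left 3 synthesis genes lower where ELOVL5 lost its call together with ACLY, SCD and FADS1, and without background correction FADS2 differed by -0.27 and ACACB by -0.44.

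**Figure D2:**
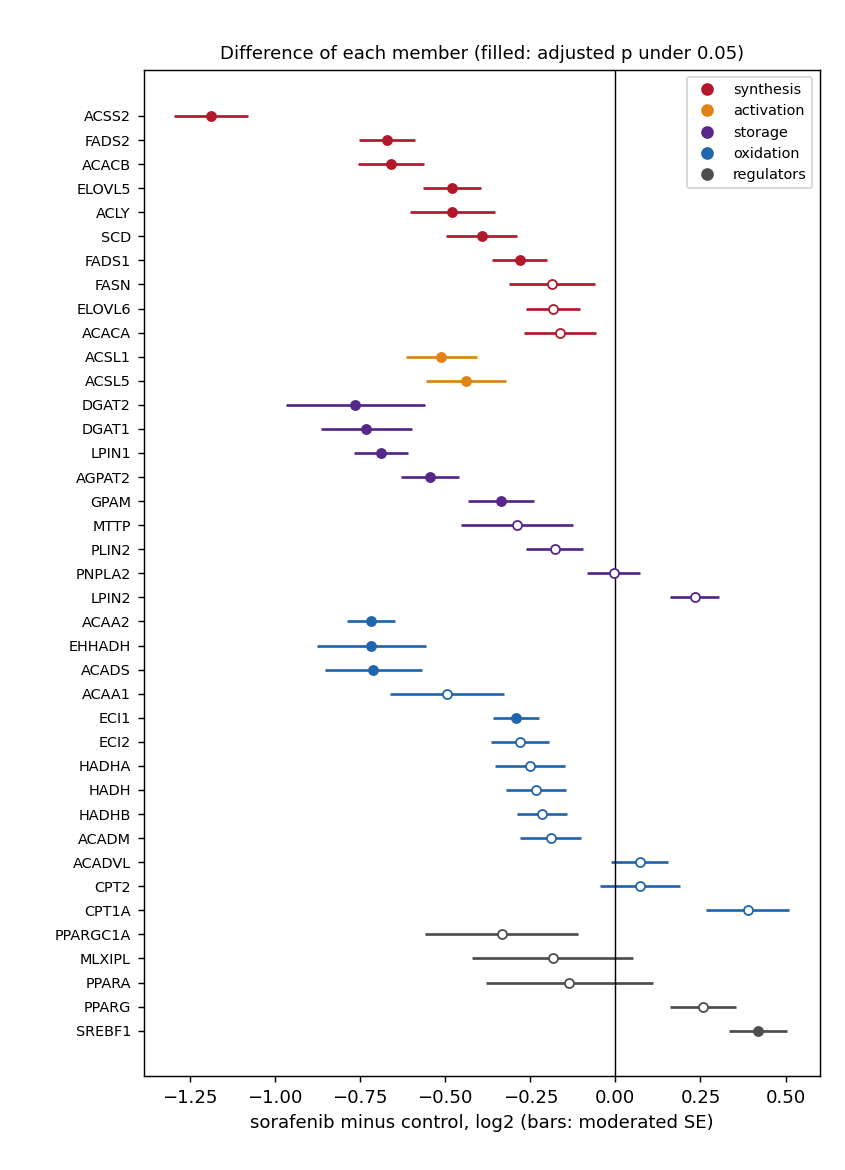
Difference of each tested gene, sorafenib minus control on the log2 scale, with its moderated SE; filled points passed an adjusted p of 0.05. ACSS2 lies farthest left at -1.19, and SREBF1 at 0.42 is the filled point right of 0.

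Promoter windows of 250 bases before to 50 after the gene start, from RefSeq (GRCh38.p14), were found for 39 of the 45 genes, and FASN, DGAT1, DGAT2, PNPLA3, EHHADH and ACAA1 had no entry. A gene can have several starts, whose windows may overlap, which gave 64 windows for the 39 genes. The box CCAAT, bound by NF-Y, a partner of SREBP, occurred on either strand in 10 of 17 windows of synthesis genes (58.8%), in 8 of 11 such genes, and in 1 of 15 windows of oxidation genes (6.67%), against 34.6% of all 35116 windows. Among all windows of the genes called lower it occurred in 9 of 26, or 34.6%, which is the share of all windows. The sterol response element TCACNCCAC was found in 0 of the 17 synthesis windows, in 1 window each of ACSL1 and PNPLA2, and in 1.13% of all windows. The E-box CACGTG occurred in 4 of 64 windows (6.25%, against 7.26% of all), and the PPAR element (2 copies of AGGTCA with 1 base between them) in 0 of 64 and in 8 of all. Both strands were searched for each motif, and matches of different motifs may overlap. No match says only that these letters are not in these windows.

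Shown here are windows of the acetyl-CoA genes ACSS2 and ACLY and of SCD, which fell, and of SREBF1, which rose, with CCAAT on either strand (ATTGG on the other) in capitals. They lie at chr20:34874739-34875038 (plus strand), chr17:41918973-41919272 (minus strand), chr10:100346983-100347282 (plus strand) and chr17:17836937-17837236 (minus strand), and hold 1, 2, 2 and 0 matches.
ACSS2: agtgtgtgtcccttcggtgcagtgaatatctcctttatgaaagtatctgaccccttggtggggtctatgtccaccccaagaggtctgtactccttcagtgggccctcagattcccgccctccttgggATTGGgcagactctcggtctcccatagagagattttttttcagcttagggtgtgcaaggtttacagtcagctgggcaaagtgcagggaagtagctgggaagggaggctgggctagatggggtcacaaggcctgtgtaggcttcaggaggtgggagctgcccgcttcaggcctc
ACLY: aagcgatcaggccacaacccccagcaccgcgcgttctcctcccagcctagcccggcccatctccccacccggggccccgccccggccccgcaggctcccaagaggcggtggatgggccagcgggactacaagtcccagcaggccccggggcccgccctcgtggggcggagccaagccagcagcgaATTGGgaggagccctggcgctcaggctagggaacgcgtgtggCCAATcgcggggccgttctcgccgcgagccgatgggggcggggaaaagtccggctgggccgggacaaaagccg
SCD: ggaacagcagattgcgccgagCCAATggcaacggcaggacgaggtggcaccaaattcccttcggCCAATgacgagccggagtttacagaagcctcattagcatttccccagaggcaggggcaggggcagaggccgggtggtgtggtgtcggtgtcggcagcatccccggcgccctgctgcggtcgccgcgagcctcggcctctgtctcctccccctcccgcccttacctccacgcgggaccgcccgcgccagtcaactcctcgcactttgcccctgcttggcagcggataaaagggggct
SREBF1: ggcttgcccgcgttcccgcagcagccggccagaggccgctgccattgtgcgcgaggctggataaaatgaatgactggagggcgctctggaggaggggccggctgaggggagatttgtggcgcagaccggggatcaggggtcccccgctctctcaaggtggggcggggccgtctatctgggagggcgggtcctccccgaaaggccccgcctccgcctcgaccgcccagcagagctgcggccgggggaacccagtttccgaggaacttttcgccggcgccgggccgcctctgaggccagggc

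Both acyl-CoA synthetases tested, which activate fatty acids by joining them to coenzyme A, were lower. ACSL1, the main form of liver, fell from 8.50, 8.43 and 8.23 to 8.02, 7.82 and 7.78 (-0.51 ± 0.11; limma, adjusted p = 0.0155). ACSL5, a form of mitochondria and the endoplasmic reticulum, fell from 11.73, 11.88 and 12.09 to 11.39, 11.38 and 11.62 (-0.44 ± 0.12, adjusted p = 0.0363). Neither gene had overlapping groups. ACSL1 lost its call when control array 1 or 2 or sorafenib array 2 was left out (limma, adjusted p from 0.0501 to 0.0561). ACSL5 lost its call when control array 2 or 3 or sorafenib array 1 or 2 was left out (adjusted p from 0.0879 to 0.110), under median scaling (0.0867), without a filter (0.0571) and when its probes were averaged (0.221).

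At each step of triglyceride synthesis at least 1 gene was lower, while PLIN2 of the lipid droplet coat and PNPLA2 of lipolysis were not called. Of 9 storage genes tested, 5 were lower (55.6%, against 14.3% of all genes) and none higher (against 11.0%), with a median difference of -0.34. GPAM, the mitochondrial glycerol phosphate acyltransferase that starts the route, was at 12.47, 12.54 and 12.59 in control and 12.03, 12.23 and 12.33 with sorafenib (-0.34 ± 0.10; limma, adjusted p = 0.0462). AGPAT2, which adds the next acyl chain, fell from 7.59, 7.76 and 7.59 to 7.19, 7.02 and 7.10 (-0.54 ± 0.09, adjusted p = 0.00634). LPIN1, the phosphatase that yields diacylglycerol, fell from 10.85, 10.85 and 11.00 to 10.19, 10.29 and 10.15 (-0.69 ± 0.08, adjusted p = 0.00251). These 3 steps precede the last acylation, and in none of them did the groups overlap.

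The last acylation is carried out by DGAT1 and DGAT2, unrelated enzymes that both add the final chain to diacylglycerol. DGAT1 was at 10.95, 11.07 and 11.30 in control and 10.24, 10.28 and 10.60 with sorafenib (-0.73 ± 0.13; limma, adjusted p = 0.0104). DGAT2 was at 7.17, 7.50 and 7.69 in control and 6.36, 6.65 and 7.06 with sorafenib (-0.76 ± 0.21, adjusted p = 0.0363). The SE of DGAT2 was larger than that of DGAT1, and both genes had every sorafenib array below every control array.

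PLIN2, the main coat protein of lipid droplets in liver, was at 13.89, 13.92 and 13.76 in control and 13.62, 13.78 and 13.63 with sorafenib, with overlap and no call (-0.18 ± 0.08; limma, adjusted p = 0.167). PNPLA2, which encodes adipose triglyceride lipase, was at 10.04, 10.11 and 9.91 in control and 10.01, 9.98 and 10.05 with sorafenib. Its difference of -0.01 ± 0.08 was the smallest among the storage genes. MTTP, which loads lipid onto apolipoprotein B for export, differed by -0.29 ± 0.16 (limma, adjusted p = 0.243, or 0.0399 and lower when blocked by replicate number). LPIN2, a phosphatase of the same family as LPIN1, differed by 0.23 ± 0.07 without overlap (limma, adjusted p = 0.0556, or 0.0439 when blocked by replicate number).

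GPAM lost its call in each fit that left out 1 array other than sorafenib array 3 (limma, adjusted p from 0.0803 to 0.119), under median scaling (0.258) and without a filter (0.0749). When each probe was tested on its own, the brightest probe of GPAM was not called (0.0540), and its other detected probe was lower (-0.42, adjusted p = 0.0127). DGAT2 lost its call when control array 2 or 3 or sorafenib array 1 or 2 was left out (adjusted p from 0.0858 to 0.103) and without a filter (0.0543), and in each of these fits 3 storage genes were lower. Without background correction DGAT2 differed by -0.40 and AGPAT2 by -0.32.

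**Figure D3:**
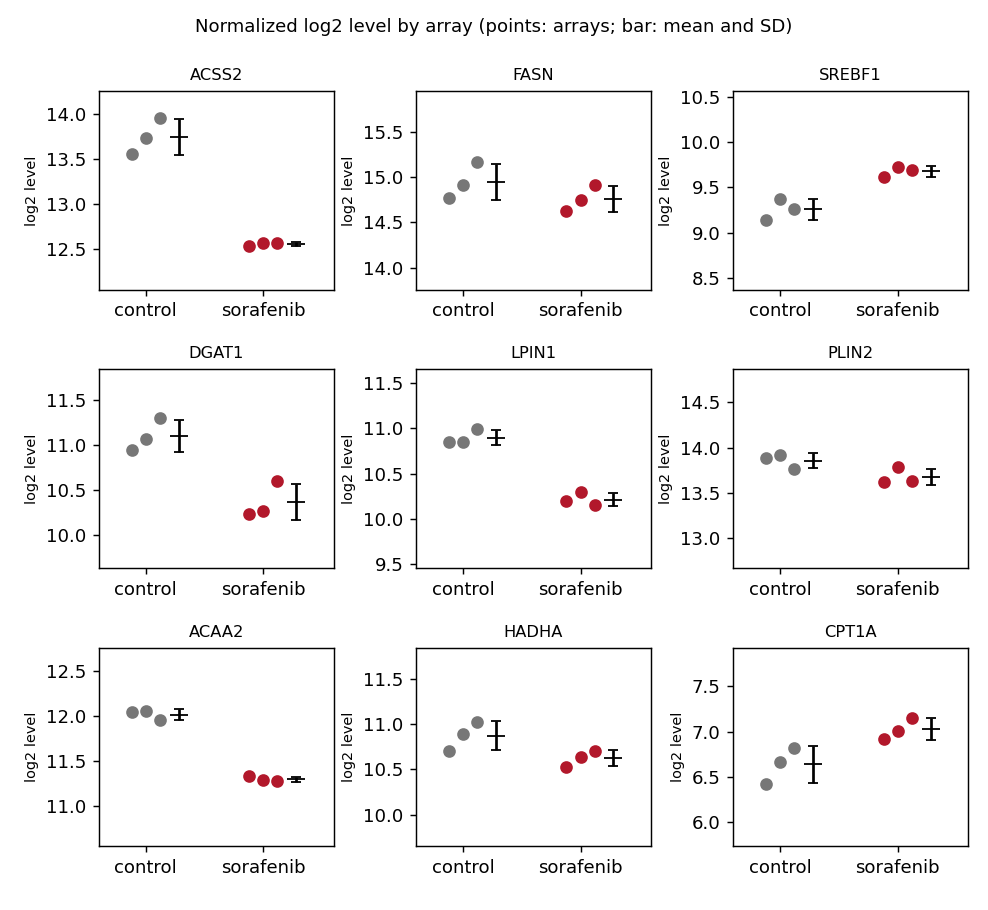
Normalized log2 level of 9 genes on the 3 control and 3 sorafenib arrays (points), with the mean and SD of each group; each panel spans the same log2 range. ACSS2, DGAT1, LPIN1 and ACAA2 separate downward, SREBF1 and CPT1A upward, and FASN, PLIN2 and HADHA overlap.

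In beta-oxidation the differences were largest at the short-chain dehydrogenase, the last thiolase step and the peroxisomal bifunctional enzyme, and the carnitine palmitoyltransferase genes CPT1A and CPT2 were not called. Of 13 genes tested, 4 were lower (30.8%, against 14.3% of all genes) and none higher (against 11.0%), with a median difference of -0.25. ACAA2, the mitochondrial thiolase that releases acetyl-CoA, fell from 12.04, 12.05 and 11.95 to 11.33, 11.28 and 11.27 (-0.72 ± 0.07; limma, adjusted p = 0.00145). EHHADH, the bifunctional enzyme of peroxisomes, fell from 10.26, 10.36 and 10.26 to 9.33, 9.45 and 9.94 (-0.72 ± 0.16, adjusted p = 0.0198). The sorafenib values of ACAA2 were close together, and those of EHHADH spread more widely.

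ACADS, the dehydrogenase of short chains, fell from 7.93, 8.26 and 8.42 to 7.52, 7.34 and 7.62 (-0.71 ± 0.14; limma, adjusted p = 0.014). ECI1, an isomerase needed for unsaturated chains, fell from 11.48, 11.58 and 11.53 to 11.23, 11.22 and 11.26 (-0.29 ± 0.07, adjusted p = 0.0233). The groups did not overlap for either gene. HADHA and HADHB encode the mitochondrial trifunctional protein. HADHA was at 10.71, 10.89 and 11.02 in control and 10.53, 10.64 and 10.71 with sorafenib, a difference of -0.25 ± 0.10 that was not called (adjusted p = 0.122), and HADHB differed by -0.22 ± 0.07 (adjusted p = 0.0719). Also negative and not called were ACAA1, the peroxisomal thiolase (-0.49), ECI2, a second isomerase (-0.28), HADH, the dehydrogenase of shorter hydroxyacyl chains (-0.23), and ACADM, the medium-chain dehydrogenase (-0.19).

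CPT1A, which makes acylcarnitine at the outer mitochondrial membrane and sets the rate of entry, was at 6.42, 6.66 and 6.82 in control and 6.91, 7.01 and 7.15 with sorafenib. Its groups did not overlap, and its difference of 0.39 ± 0.12 missed the threshold (limma, adjusted p = 0.0569, or 0.0162 when blocked by replicate number). CPT2, its partner at the inner membrane, differed by 0.07 ± 0.12, and ACADVL, the dehydrogenase of very long chains, by 0.07 ± 0.08. Without background correction CPT1A differed by 0.19 and was not called. SLC25A20, the translocase that carries acylcarnitine between these enzymes, is not among the 45 genes and was named after its values were seen. It was at 9.90, 9.89 and 10.12 in control and 9.02, 9.09 and 9.46 with sorafenib, and was lower (-0.78 ± 0.13; limma, adjusted p = 0.00861).

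The count of lower oxidation genes depended on the fit. It was 7 when arrays were blocked by replicate number, where ACAA1, HADH and HADHA were added (limma, adjusted p = 0.00752, 0.0479 and 0.0447), and 7 without background correction. The count of lower oxidation genes was 1 without control array 2, where ACAA2 remained lower. It was 2 when control array 3 or sorafenib array 1 or 2 was left out. In these 4 fits 8.51%, 9.95%, 9.44% and 8.91% of all genes were lower, in that order. ECI1 and EHHADH lost their calls in these 4 fits, EHHADH also without control array 1, ECI1 also under median scaling, and ACADS without control array 2 (limma, adjusted p = 0.0503). Without background correction ACADS differed by -0.47.

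Among the regulators, SREBF1, which encodes SREBP-1, was higher, and no other regulator was called. SREBF1 was at 9.14, 9.37 and 9.26 in control and 9.61, 9.73 and 9.69 with sorafenib (0.42 ± 0.08; limma, adjusted p = 0.0146), without overlap. PPARG, a lipogenic nuclear receptor, differed by 0.26 ± 0.10 without overlap and was not called (adjusted p = 0.0991). MLXIPL, which encodes the glucose-responsive factor ChREBP, differed by -0.18 ± 0.24 and PPARGC1A, a coactivator of oxidative genes, by -0.33 ± 0.22, and neither was called. PPARA, the fatty acid receptor, was at 6.60, 6.02 and 6.24 in control and 6.60, 5.71 and 6.15 with sorafenib by its brightest probe (-0.13 ± 0.25, adjusted p = 0.719). These values overlapped fully. A further PPARA probe was at 6.27, 6.25 and 6.15 in control and above background on 0 of 3 sorafenib arrays (5.30, 5.39 and 5.08). This probe passed the filter through the control arrays alone, so it had to differ, and no p-value is given. It was at least 1.47-fold lower with sorafenib, a bound taken against the higher of its own level and the lowest detected level on each array. SREBF1 lost its call when sorafenib array 2 was left out (adjusted p = 0.0552) and under median scaling (0.0966).

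Further detected probes were compared with the brightest for 15 genes. All 18 such probes had a difference of the same sign as the brightest, and 5 of them repeated a call. ACSS2 differed by -1.31 on a second probe and by -0.43 on another that was above background on 1 sorafenib array, ACLY by -0.59 and GPAM by -0.42. AGPAT2 differed by -0.97 on one further probe and by -0.13 on another, and ACSL5 by -0.51 and -0.02. On the further probe of ACACA (-0.19) and of PLIN2 (-0.18) the groups did not overlap, unlike on the brightest. Neither of these further probes was called (limma, adjusted p = 0.187 and 0.138 over all probes). For ACADM, ACSL5, ACSS2, AGPAT2, CPT1A and ELOVL6 the groups overlapped on a further probe but not on the brightest. The second probe of SREBF1 differed by 0.22 and was not called (limma, adjusted p = 0.117 over all probes), and that of CPT1A differed by 0.33 (adjusted p = 0.201). PPARA had the widest gap between probes, 0.83, on the probe that passed the filter through the control arrays alone.

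**Figure D4:**
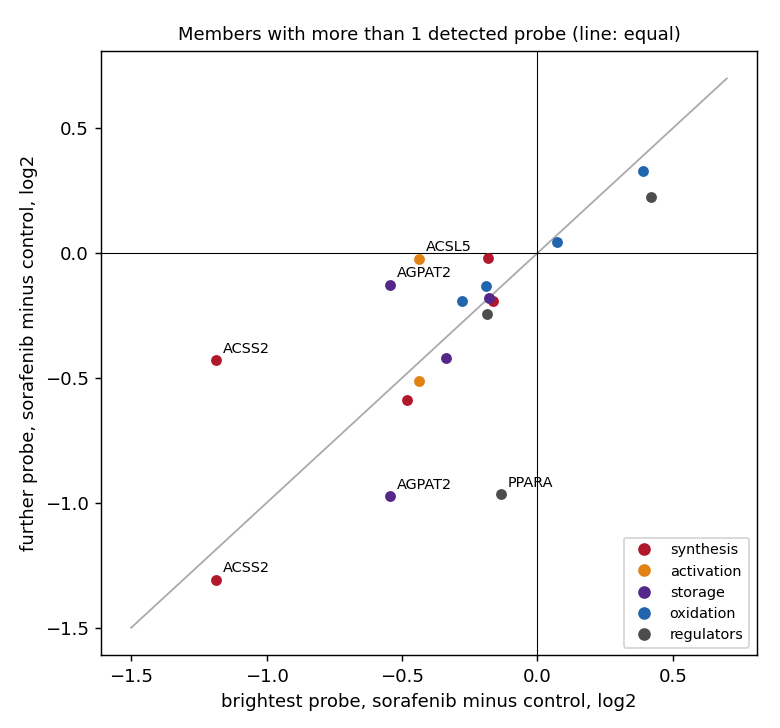
Difference on each further detected probe (vertical axis) against that on the brightest probe of the same gene (horizontal axis), both sorafenib minus control on the log2 scale, with the line of equality. The 18 points lie where both differences have the same sign, and PPARA, ACSS2, AGPAT2 and ACSL5 have probes far from the line.

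Other genes of these pathways were counted from a list made by function, in which 32 of 94 tested genes passed the threshold, 25 lower (26.6%, against 14.3% of all genes) and 7 higher (7.45%, against 11.0%). The list was made with earlier results of these data known. Of 19 further genes of mitochondrial oxidation 11 were lower and none higher, with a median of -0.28 and 19 negative differences. ACOT1, an acyl-CoA thioesterase, differed by -0.96 ± 0.15 (limma, adjusted p = 0.00669), and its sequence is nearly identical to that of ACOT2, so signal may be shared. In peroxisomal oxidation 4 of 10 were lower and none higher, with ECH1, a dienoyl-CoA isomerase, down from 12.33, 12.57 and 12.70 to 11.83, 11.79 and 11.94 (-0.68 ± 0.11, adjusted p = 0.00696). Of 15 further synthesis genes 2 were lower (13.3%), a share near that of all genes, and the larger fall was that of the mitochondrial acetate enzyme ACSS1, which fell by 0.95 ± 0.09 (adjusted p = 0.00147).

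Of 12 further uptake and activation genes 3 were called (25%) and of 19 further storage genes 5 (26.3%), shares near the 25.3% of all genes. CD36, a fatty acid translocase, was at 9.64, 9.65 and 10.06 in control and 7.99, 8.09 and 8.29 with sorafenib, and fell by 1.66 ± 0.14 (limma, adjusted p = 0.000904), while the transporter gene SLC27A2 rose by 0.51 ± 0.11 (adjusted p = 0.0157). SLC27A2 lost its call when control array 2 was left out (adjusted p = 0.0569). Of the uptake and activation genes 2 were lower and 1 higher. Of the storage genes 3 were lower and 2 higher. TM6SF2, which supports lipoprotein lipidation, fell by 0.76 ± 0.11 (adjusted p = 0.00496, and by 0.44 without background correction). GPAT3, the acyltransferase of the endoplasmic reticulum that catalyses the same step as GPAM, rose from 8.63, 8.38 and 8.25 to 9.35, 9.11 and 9.06 (0.75 ± 0.13, adjusted p = 0.00791). AGPAT5, of the same family as AGPAT2, rose from 9.59, 9.62 and 9.67 to 9.88, 9.97 and 10.20 (0.39 ± 0.10, adjusted p = 0.0293). It lost its call in 6 of 18 alternative fits.

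Among 16 further regulators 4 were higher (25%, against 11.0% of all genes) and 1 lower. The 4 include PRKAG2, whose call the filter favoured, so this share is not read as an excess. PRKAG2, a subunit of the energy sensor AMPK, was above background on 1 of 3 control arrays and passed the filter through the sorafenib arrays, so it had to differ. It was at 5.73, 5.51 and 5.55 in control and 6.84, 6.49 and 6.49 with sorafenib, and the size of its difference, 1.01 with background correction and 0.40 without, is not well determined. RXRA, the partner receptor of the PPARs, fell by 0.73 ± 0.11 (adjusted p = 0.00497). Of 3 tested genes of ketone body synthesis and PPAR alpha targets 2 were lower. ANGPTL4, an inhibitor of lipoprotein lipase, fell by 1.37 ± 0.18 on its brightest probe (adjusted p = 0.0035), and differed by -0.03 on its other detected probe, which was not called and which took its place, with no call, under a filter of detection p under 0.01 on all arrays and when control array 3 was left out. Without background correction the brightest probe differed by -0.72.

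**Figure D5:**
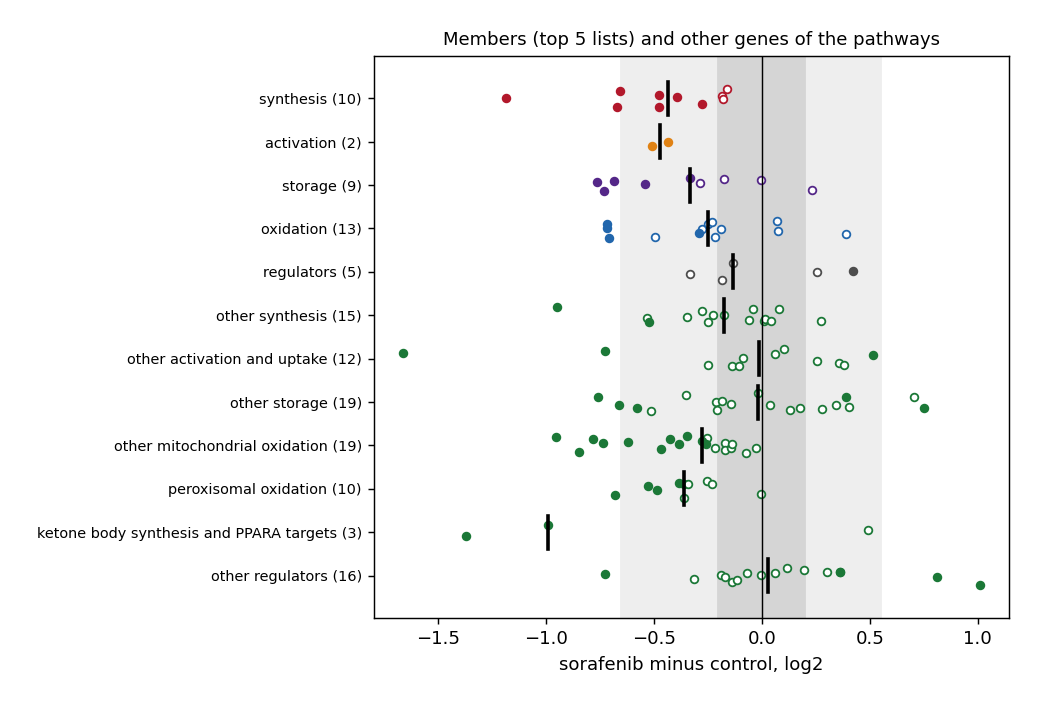
Differences of the tested genes by list (number of genes in brackets), sorafenib minus control on the log2 scale; filled points passed an adjusted p of 0.05 and black bars are medians. The dark band runs from percentile 25 to 75 and the light band from percentile 5 to 95 of all genes tested. The medians of all lists lie left of 0 except that of the other regulators (0.03), and those of other storage (-0.02) and other activation and uptake (-0.02) lie close to it.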

How the data were processed

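The authors deposited probe intensities and detection p-values for 47323 probes on 6 arrays of biotin-labelled cRNA, not normalized per the file headers, and a table of processed log2 values. The deposited log2 values equal quantile-normalized log2 intensities within 5e-07, with no background correction. Intensities were background-corrected and quantile-normalized with limma's neqc (offset 16). Filtering on the detection p left 20120 probes and 11542 genes, each represented by its brightest probe and named from the platform annotation. Groups were compared with lmFit and eBayes, and two-sided p-values were adjusted by the Benjamini-Hochberg method across genes. Levels on the array are not compared between probes, and the number of arrays limits the precision.

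Group and replicate number came from the sample titles. Deviations of same-numbered arrays from their group means correlated at 0.304, 0.296 and 0.416. This pairing comes from the data, not from the labels; a blocked result is given where it changes a call. The members, their roles and the lists were chosen with earlier results of these data known. Every member is named, with array values for called members and for FASN, ACACA, PLIN2, PNPLA2, CPT1A, HADHA and PPARA. Of other genes, the largest called rise and fall per list are named, and SLC25A20 and AGPAT5 besides. On simulated data for this comparison (11542 genes, 200 of them changed, 10 draws) the method recovered 42.7%, 79.6% and 97.0% of changes of 0.5, 1 and 2 on the log2 scale, and 5.32% of calls were false. In the data 25.3% of genes were called, a larger share than was changed in the simulation. Simulated arrays were also drawn independently, without the correlation of same-numbered arrays, so these rates may not hold for the data. R 4.3.3, limma 3.58.1, Python 3.11.15 and matplotlib 3.10.9 were used. The alternatives and their effects are in the closing section.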

Additional observations from a re-analysis of the deposited data

How the results depend on the processing

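Beside the planned analysis, 18 alternatives were run. Over these, 7 of the 19 called members kept direction and call wherever they were tested: ACSS2, FADS2, ACACB, LPIN1, AGPAT2, DGAT1 and ACAA2 (FADS2 was not tested under the strict filter). Cyclic loess and testing each probe separately moved no count of members, classes or all genes by over 1.5 times. Against 1 member called higher in the planned analysis, the count was 0 under median scaling, 2 without background correction, with a normexp offset of 50, with the authors' processed values, with averaged probes and with a trended robust eBayes, 3 under the strict filter (detection p under 0.01 on all arrays), and 4 with array weights. The replicate block, which pairs arrays by number, gave 3 members higher, 22 lower, 7 oxidation genes lower and 3679 genes in all, against 1, 18, 4 and 2921, and lost no member's call. Lower oxidation genes numbered 7 without background correction, with the authors' values and with the trended eBayes, and 8 with array weights. The synthesis median was -0.33 without background correction, against -0.44. Median scaling left 1532 genes, 11 lower members, 3 lower synthesis genes and 21 other pathway genes, and turned PNPLA2 to 0.0056; the cause was not tested. With no filter, more dim genes were tested, and 4 synthesis and 3 storage genes were lower. Leaving out 1 array at a time, with fewer arrays in each fit, gave 1661 to 2378 genes in all, 0 to 2 members higher, 8 to 18 lower, 4 to 6 synthesis, 3 to 5 storage and 1 to 5 oxidation genes lower, a synthesis median of -0.47 to -0.33, and 19 to 27 other pathway genes. In the same fits 4 uncalled differences changed sign: PNPLA2 ranged from -0.059 to 0.038, PPARA from -0.36 to 0.087, MLXIPL from -0.39 to 0.025 and CPT2 from -0.018 to 0.19. Signal near background limits FADS2, DGAT2, AGPAT2, ACACB, ACADS and CPT1A, whose differences shrank when no background was subtracted, and genes below background on all arrays have no measured change.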
